A study of Homo sapiens with 3 samples.

Results

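The transcripts examined here encode AMPK, the AMP-activated protein kinase, and the core of the mTOR pathway that it restrains. A list of 10 genes was taken, comprising the AMPK catalytic subunits PRKAA1 and PRKAA2, the beta subunits PRKAB1 and PRKAB2, the gamma subunits PRKAG1 and PRKAG2, the kinase MTOR, its partner RPTOR, and TSC1 and TSC2. The members were found as array probes whose transcript accession belongs to one of these genes, which gave 12 probes for the 10 genes among 22435 named genes and 58201 probes on the array. PRKAA1 and TSC2 were each measured by 2 probes and the other members by 1.

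The established line A549, derived from a human lung adenocarcinoma, was kept for 48 h with 0.1% DMSO as the control, with 60 μg/mL cordycepin, or with 100 μg/mL cordyceps. The RNA of each condition was measured on 1 Agilent 1-color array that covers the transcripts of the genome. Cordycepin is 3'-deoxyadenosine, an adenosine analog, while cordyceps is given by the labels with no further description. By the labels, every culture, the control included, also held zinc sulfate at 16.7 μM, troglitazone at 10 μM and nicotinamide at 10 mM beside 10% serum and 1% antibiotics, whereas the methods of the study name the serum and the antibiotics alone. With 1 array per condition (n = 1), every difference below compares a pair of arrays, and neither a replicate error nor a p-value can be given. RNA came from whole cultures, so less of a transcript in each cell and fewer cells that hold it cannot be told apart.

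AMPK is a trimer that senses cellular energy. The alpha subunit is the kinase, the beta subunit is a scaffold that also binds glycogen, and the gamma subunit binds AMP, ADP and ATP. When AMP rises, AMPK phosphorylates TSC2, which with TSC1 switches off the small GTPase RHEB, and RPTOR, the scaffold of mTOR complex 1 (mTORC1), so that protein synthesis slows. The main upstream kinase of AMPK is STK11 (LKB1), whose function A549 cells are known to lack. Cordycepin has been described in other cells as an activator of AMPK that binds the gamma subunit encoded by PRKAG1, and thiazolidinediones such as troglitazone are also known to activate AMPK. The arrays measure transcripts and carry no information on phosphorylation or kinase activity.

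PRKAG1 was the only member that differed at least 2-fold between arrays, and it was lower with cordycepin, whereas its paralog PRKAG2 was not. Because these paralogs had the largest difference among the 5 pairs of partner genes compared, the 250 bases before the start of each gene are shown, from the RefSeq promoter table of build GRCh38.p14. The PRKAG1 window is chr12:49018777-49019026 and the PRKAG2 window is chr7:151877116-151877365, both on the minus strand and written 5′ to 3′. Capitals mark the GC box GGGCGG, the ETS motif CCGGAAG and the cAMP response core TGACGT, each searched on both strands.
PRKAG1: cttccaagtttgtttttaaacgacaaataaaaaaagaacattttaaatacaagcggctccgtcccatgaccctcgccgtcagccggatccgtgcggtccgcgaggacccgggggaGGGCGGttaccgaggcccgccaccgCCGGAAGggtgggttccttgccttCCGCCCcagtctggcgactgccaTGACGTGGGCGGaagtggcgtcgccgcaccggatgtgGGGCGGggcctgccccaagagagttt
PRKAG2: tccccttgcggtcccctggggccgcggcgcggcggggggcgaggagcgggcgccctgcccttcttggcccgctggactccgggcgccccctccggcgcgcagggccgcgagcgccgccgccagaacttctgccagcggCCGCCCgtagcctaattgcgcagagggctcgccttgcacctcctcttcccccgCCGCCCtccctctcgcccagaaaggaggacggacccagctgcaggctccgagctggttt

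The PRKAG1 window held 4 GC boxes, 1 ETS motif and 1 cAMP response core, and the PRKAG2 window held 2 GC boxes and neither of the others. The cAMP response core adjoins a GC box in PRKAG1 without overlap, and neither window held a CCAAT box (CCAAT on either strand). Of 27305 windows of the same length, 42.3% held the GC box, 8.82% the ETS motif and 7.42% the cAMP response core. Among the 10 members, 8 windows held the GC box, 4 the ETS motif and 1 the cAMP response core. These matches describe letters and are not binding sites.

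Values are Agilent processed signals, scaled by subtracting the 75th percentile of each array on the log2 scale. A probe was called detected when it was well above background, and a gene was called changed at 2-fold or more by its brightest probe, averaged on the normalized log2 scale, called the main probe below. All 12 member probes were detected on each array. Their signals ran upward from 72.1, compared with a lowest detected signal over all probes of 18.6 in control cells, 21.8 under cordycepin and 34.5 under cordyceps. Technical error was measured in a pair of ways. The error model of the scanner software gave 0.20 to 0.24 for the log2 ratio of a member probe, and the difference between the brightest and second brightest probe of the same gene, over 3356 genes, gave a robust SD of 0.25 for the log2 ratio of 1 probe with cordycepin and 0.20 with cordyceps, called the technical SD below. The plain SD, which gives more weight to the genes whose probes disagree most, was 0.35 and 0.34. The scanner error describes measurement alone. The technical SD can also hold real differences between transcripts of a gene, where its probes target different ones. Neither includes the spread between cultures. All 8 A549 and epithelial markers looked up, among them KRT18 and ALDH1A1, were detected on every array, whereas CD3E, PECAM1 and COL3A1 of blood, endothelial and fibroblast cells were detected on none. Of the other markers of those cells, PTPRC and COL1A1 were detected on every array, and CDH5 and VWF on the control and cordycepin arrays.

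A corner of the cordyceps array carried a local artefact, with 8.02% of its probes at least 2-fold higher than control compared with 1.38% elsewhere. On the cordycepin array the shares were 3.29% in the same corner and 3.75% elsewhere. Of the members, only the second PRKAA1 probe lay in that corner, and the main PRKAA1 probe lay close to its edge. No member spot had an outlying local background on any array. The median log2 ratio of the measured probes around each member spot ran from -0.17 to -0.05 with cordyceps, compared with -0.12 over all measured probes. The corner itself had a median of -0.13, so such a median does not show the artefact.

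**Figure D1:**
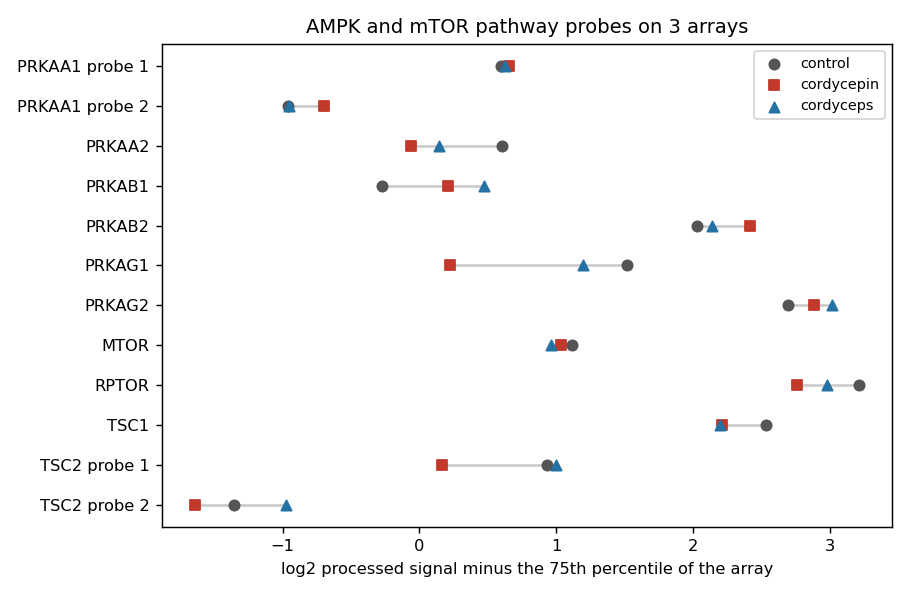
Normalized level of each of the 12 member probes (vertical axis) on the control, cordycepin and cordyceps arrays, as log2 processed signal minus the 75th percentile of the array (horizontal axis), 1 array each. PRKAG1 shows the widest spread, from 1.51 on the control array to 0.22 on the cordycepin array, while MTOR stays between 0.96 and 1.12. Each row compares arrays within a probe, and positions of different probes are not comparable.

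Of the gamma subunits, which carry the nucleotide-binding sites of AMPK, PRKAG1 alone was called with cordycepin. PRKAG1 had a signal of 743 in control cells, 261 under cordycepin and 597 under cordyceps. The cordycepin array was the low one, with the cordyceps array between it and the control. After scaling, PRKAG1 fell by 1.29 on the log2 scale with cordycepin, a 2.45-fold drop, with a scanner error of 0.21. This value rests on 1 spot of 1 probe, with no second PRKAG1 probe to compare. Of 14600 genes detected on both arrays, 1.36% had a ratio as low or lower. With cordyceps the log2 ratio of PRKAG1 was -0.32, not a called change.

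PRKAG2, the other gamma subunit among the members, had a signal of 1683 in control cells, 1655 under cordycepin and 2101 under cordyceps. Its log2 ratio was 0.19 with cordycepin, within the technical SD of 0.25, and turned to -0.07 under median scaling and -0.02 without scaling. With cordyceps it was 0.32, still below a 1.5-fold difference. The difference between the log2 ratios of PRKAG1 and PRKAG2, which does not depend on any scaling that shifts a whole array, was -1.48 with cordycepin. This corresponds to a 2.80-fold shift of PRKAG1 relative to PRKAG2 and to 4.13 times the technical SD of such a difference. Among the 3356 genes with a pair of detected probes, 1.34% had probes that differed as much from each other. With cordyceps the same difference was -0.64, or 2.20 times the technical SD, and 10.9% of those genes had probes as far apart. Normexp background correction does not shift a whole array alike. With it, the cordycepin log2 ratios of PRKAG1 and PRKAG2 were -0.96 and 0.18.

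The catalytic subunits were both short of 2-fold with either treatment. PRKAA2 had a signal of 396 in control cells, 215 under cordycepin and 288 under cordyceps. Both treated arrays were below the control array. The log2 ratio was -0.67 with cordycepin and -0.46 with cordyceps, so that PRKAA2 passed a 1.5-fold threshold with cordycepin but not the 2-fold one.

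PRKAA1, the other kinase subunit, was level over the arrays. Its main probe had a signal of 394, 353 and 403 on the control, cordycepin and cordyceps arrays, with log2 ratios of 0.06 with cordycepin and 0.03 with cordyceps. The former turned to -0.21 under median scaling. The second probe, in the corner of the array, had a signal of 133, 139 and 134, with log2 ratios of 0.27 and 0.01. PRKAA2 relative to PRKAA1 differed by -0.72 with cordycepin, 2.01 times the technical SD, and by -0.49 with cordyceps, 1.70 times it. Probes of the same gene lay as far apart in 12.6% and 18.2% of genes, so neither difference stands clear of the disagreement between probes.

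**Figure D2:**
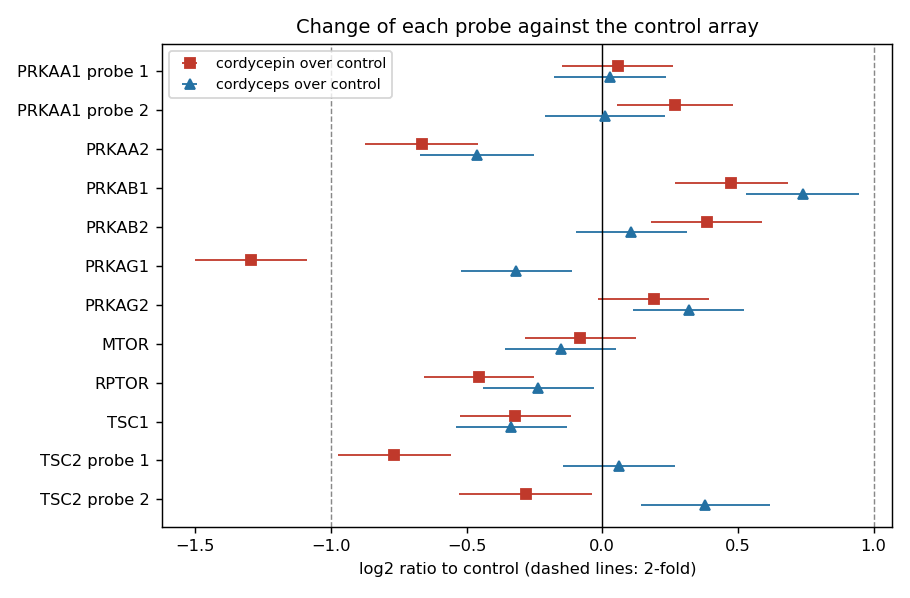
log2 ratio of each member probe to the control array (horizontal axis), for cordycepin (squares) and cordyceps (triangles), with bars for the error that the scanner software assigns to 1 array per condition. PRKAG1 with cordycepin, at -1.29, is the only point beyond the dashed 2-fold lines.

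The beta subunits, scaffolds that hold the trimer together, were both above control in either treatment. PRKAB1 had a signal of 216 in control cells, 259 under cordycepin and 360 under cordyceps. The cordyceps array was highest and the control array lowest. The log2 ratio was 0.74 with cordyceps, 1.67-fold, and 0.48 with cordycepin. Of 13889 genes detected on both arrays, 5.13% were as high or higher than PRKAB1 with cordyceps. It reached 2.01-fold under median scaling and 1.51-fold with normexp background correction.

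PRKAB2 had a signal of 1065, 1199 and 1148 on the control, cordycepin and cordyceps arrays. Its log2 ratio was 0.38 with cordycepin and 0.11 with cordyceps, the latter within the technical SD of 0.20. PRKAB1 relative to PRKAB2 differed by 0.09 with cordycepin, within the technical SD of 0.36 for such a difference, and by 0.63 with cordyceps, 2.18 times the technical SD, where 11.1% of genes had probes as far apart.

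MTOR, the kinase shared by both mTOR complexes, differed little. Its signal was 565 in control cells, 460 under cordycepin and 508 under cordyceps. The log2 ratio was -0.08 with cordycepin and -0.15 with cordyceps, both smaller than the technical SD, and the latter turned to 0.12 under median scaling. RPTOR, which recruits substrates to mTORC1 and is itself an AMPK substrate, had a signal of 2417 in control cells, 1521 under cordycepin and 2052 under cordyceps. Its log2 ratio was -0.45 with cordycepin. With cordyceps it was -0.24, just beyond the technical SD of 0.20, and it turned to 0.03 under median scaling. RPTOR relative to MTOR differed by -0.37 with cordycepin, close to the technical SD of 0.36.

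Among the genes of the TSC complex, TSC2 differed between the treatments. TSC2 encodes the part that acts on RHEB and that AMPK phosphorylates. Its main probe had a signal of 497 in control cells, 252 under cordycepin and 519 under cordyceps. The cordycepin array stood below the other two, which lay within the technical SD of each other. The log2 ratio was -0.77 with cordycepin, 1.70-fold lower, and 0.06 with cordyceps. The second TSC2 probe had a signal of 102, 72.1 and 132, with log2 ratios of -0.28 with cordycepin and 0.38 with cordyceps, so both probes gave the same order of the arrays but different sizes. Under median scaling the main probe reached 2.04-fold lower with cordycepin.

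TSC1, the stabilizing partner of TSC2, had a signal of 1505, 1039 and 1193 on the control, cordycepin and cordyceps arrays. Both treated arrays were below control, at log2 ratios of -0.32 with cordycepin and -0.34 with cordyceps. TSC2 relative to TSC1 differed by -0.45 with cordycepin and by 0.40 with cordyceps, 1.24 and 1.38 times the technical SD.

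**Figure D3:**
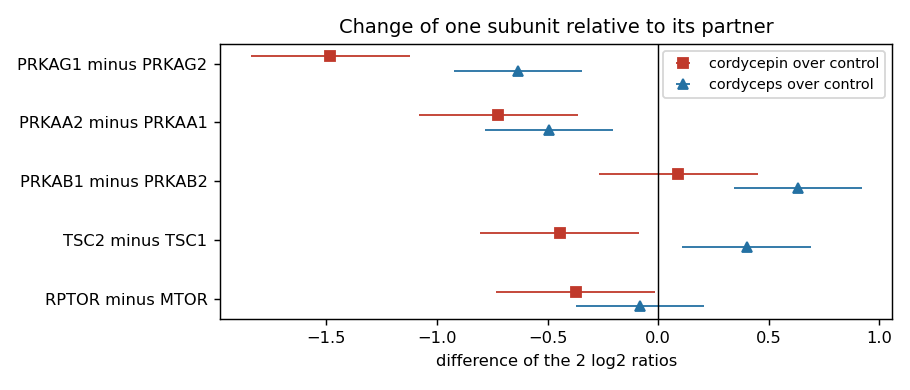
Difference between the log2 ratios of 2 partner genes (horizontal axis), for cordycepin (squares) and cordyceps (triangles) over control, with bars of 1 technical SD of such a difference. PRKAG1 minus PRKAG2 with cordycepin, at -1.48, lies farthest from 0.

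Over all 10 members, 1 was at least 2-fold lower with cordycepin and 0 were higher, against a background of 3.57% lower and 5.95% higher among 15917 genes detected on at least 1 of the arrays. The count of 1 in 10 rests on PRKAG1. At 1.5-fold, 3 members were lower (PRKAG1, TSC2 and PRKAA2) and 0 were higher, where the background was 11.8% lower and 13.3% higher. TSC2 was 1.44-fold lower by the median over its probes and PRKAA2 1.49-fold lower with normexp, while RPTOR passed 1.5-fold under median scaling (1.65-fold), without scaling (1.59-fold) and, by a small margin, after local centring. TSC1 also passed by a small margin under median scaling. The median log2 ratio of the members was -0.20, compared with -0.05 over all genes detected on both arrays. With cordyceps, 0 of 10 members reached 2-fold, where 7.35% of 15602 genes did, 4.19% higher and 3.15% lower. PRKAB1 was the 1 member that passed 1.5-fold, upward, where the background was 8.30% higher and 12.5% lower. The members' median log2 ratio was -0.06 with cordyceps, compared with -0.11 over all genes, and it turned to 0.03 with the percentile taken over probes detected on all 3 arrays. Both comparisons share the control array, so the 2 columns of ratios are not independent.

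The scaling sets the level of every ratio. Median scaling moved the median log2 ratio over all measured probes by -0.26 with cordycepin and by 0.27 with cordyceps, and no scaling moved it by -0.21 with cordycepin. The share of higher genes among those changed at least 2-fold was 62.5% with cordycepin, but 33.6% under median scaling and 39.4% without scaling. With cordyceps it was 57.1%, and 82.2% under median scaling. Over 10 alternative ways of processing, the log2 ratio of PRKAG1 with cordycepin ran from -1.56 to -0.96, and the drop was 1.94-fold, below the threshold, with normexp background correction alone.

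**Figure D4:**
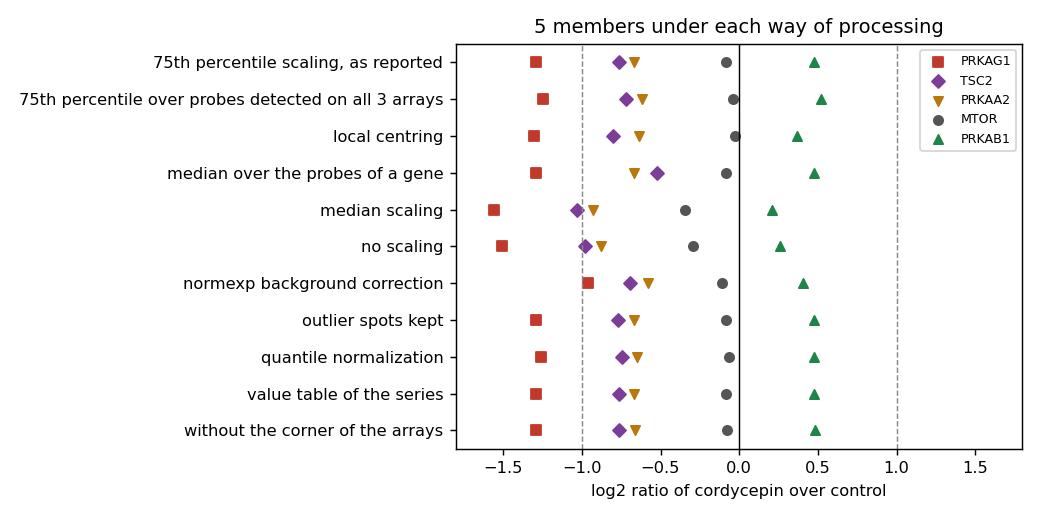
log2 ratio of cordycepin over control (horizontal axis) for 5 members under the reported scaling and each of 10 other ways of processing (vertical axis), with dashed lines at 2-fold. PRKAG1 runs from -1.56 to -0.96 and PRKAB1 from 0.21 to 0.52, and their ranges do not meet.

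The rest of the pathway was described by 7 lists of upstream kinases, other complex subunits, inhibitors and targets, 72 genes with a probe, of which 71 were detected on the control array and each treated array. With cordycepin, 3 were at least 2-fold higher and 3 were lower, 8.33% of the 72, where 9.52% of all genes changed. The split turned to 1 higher and 7 lower under median scaling and to 1 higher and 4 lower without scaling. Among all changed genes, 33.6% were higher under median scaling and 39.4% without scaling. With cordyceps, 2 were higher and 1 was lower, 4.17%, where 7.35% of all genes changed. Under median scaling 3 were higher and 0 lower with cordyceps, where 82.2% of all changed genes were higher. Their median log2 ratio was -0.16 with cordycepin and -0.18 with cordyceps, the latter turning to 0.088 under median scaling.

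Of 8 upstream kinases and their partners, 1 was lower with cordycepin (12.5%, against 9.52% of all genes changed) and 0 changed with cordyceps (against 7.35%). CAB39L, a scaffold of the STK11 complex, had a signal of 177 in control cells, 69.0 under cordycepin and 140 under cordyceps. It fell 2.22-fold with cordycepin by its main probe, while its other 2 detected probes gave log2 ratios of -0.34 and -0.20, so the call rests on 1 probe, which gave 1.65-fold with normexp. STK11 itself had a signal of 2384, 2805 and 1816, with log2 ratios of 0.45 with cordycepin and -0.39 with cordyceps. Its transcript was therefore measured in this line, and neither value reached 2-fold.

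Among 10 genes comprising the remaining AMPK subunit and direct AMPK targets, 1 rose and 1 fell with cordycepin. PFKFB3, which drives glycolysis by making an activator of phosphofructokinase, fell 2.40-fold with cordycepin by its main probe, from 7052 to 2538, and had a log2 ratio of -0.83 with cordyceps. That probe lies in the corner, and the second PFKFB3 probe, outside it, gave log2 ratios of -0.04 and -0.66, so that the drop with cordycepin rests on 1 probe.

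Of 8 other subunits and assembly factors of the mTOR complexes, 7 had ratios below 0 with each treatment. Over all genes, 54.7% did with cordycepin and 61.4% with cordyceps. The 1 call, with cordycepin, was upward (12.5%, against 9.52% of all genes changed). MAPKAP1, a subunit of mTOR complex 2, rose 2.14-fold with cordycepin by its main probe, with a signal of 185 in control cells, 341 under cordycepin and 249 under cordyceps. Its other 2 probes gave log2 ratios of 0.15 and -0.59, so the direction depended on the probe, and the main probe gave 0.83 under median scaling, 0.88 without scaling and 0.98 after local centring. TELO2, a co-chaperone that stabilizes MTOR, had the lowest ratio of this list with cordyceps, -0.69, and -0.66 with cordycepin. Under median scaling the median of all probes shifts by 0.27 with cordyceps, so the count of ratios below 0 depends on the scaling.

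None of the 3 genes RHEB, RHEBL1 and TBC1D7, the last a further TSC subunit, was called with either treatment. Over all genes, 9.52% changed with cordycepin and 7.35% with cordyceps. RHEBL1, a paralog of RHEB, had a log2 ratio of 0.94 with cordycepin, and RHEB, the GTPase that activates mTORC1, had -0.50 with cordyceps. The amino acid sensing arm brings mTORC1 to the lysosome. Against 9.52% and 7.35% of all genes, none of its 23 genes was called with either treatment. Their ratios ran from -0.60 for LAMTOR3 to 0.50 with cordycepin and from -0.72 for LAMTOR5 to 0.44 with cordyceps. LAMTOR3 and LAMTOR5 encode parts of the Ragulator scaffold on the lysosome.

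Of the 7 stress-induced inhibitors of mTORC1, 2 were called with cordycepin (28.6%, against 9.52% of all genes) and 3 with cordyceps (42.9%, against 7.35%). The calls went both ways, with 1 higher and 1 lower with cordycepin and 2 higher and 1 lower with cordyceps. SESN1 is in both counts, the control array is shared, and the SESN1 and TRIB3 probes lie in the corner. The list was also chosen with earlier results of these data known, so its shares are no test of the list. DDIT4 (REDD1), which acts through the TSC complex, had a signal of 25453 in control cells, 8856 under cordycepin and 20365 under cordyceps. It fell 2.48-fold with cordycepin, over 10 spots of its probe, and had a log2 ratio of -0.32 with cordyceps. The cordycepin array was the lowest.

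The sestrins inhibit mTORC1 through its amino acid sensors. SESN2 had a signal of 93.8 in control cells, 105 under cordycepin and 275 under cordyceps. It rose 2.93-fold with cordyceps, outside the corner, compared with a log2 ratio of 0.38 with cordycepin. SESN1, a p53 target, had a signal of 134, 262 and 58.2, so it rose 2.26-fold with cordycepin and fell 2.31-fold with cordyceps, from a single probe in the corner. Both calls ended under median scaling, at log2 ratios of 0.91 and -0.94, and with normexp, at 0.82 and -0.67, and the rise also ended without scaling, at 0.96. Its ratio with cordyceps was -1.09 after the median of the probes around it was subtracted, a step that does not remove the artefact of the corner. SESN3 was detected on the control array alone, at a signal of 22.6 near the floor, and no ratio is given.

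TRIB3, a pseudokinase that restrains AKT, had a signal of 17123 in control cells, 15493 under cordycepin and 75947 under cordyceps. It rose 4.43-fold with cordyceps, while its log2 ratio with cordycepin was 0.07. Its probe lies in the corner, where the median log2 ratio of the probes around it was -0.13 and its local background was 44.0, compared with 45.0 on the control array. The corner as a whole had a median log2 ratio of -0.13 with cordyceps, compared with -0.12 outside it. The median of nearby probes therefore does not show the artefact. The part of the corner in the TRIB3 and SESN1 values was not tested further.

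None of 13 targets of mTORC1 was called with either treatment, where 9.52% of all genes changed with cordycepin and 7.35% with cordyceps. TFEB, the transcription factor of lysosomal genes, had the highest ratio of this list with cordycepin, 0.64 by its main probe, and its other probe gave -0.46. EIF4EBP1, the translation repressor that mTORC1 inactivates, had a signal of 8983 in control cells, 7700 under cordycepin and 15059 under cordyceps. Its log2 ratio was 0.74 with cordyceps and -0.01 with cordycepin, both short of 2-fold.

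**Figure D5:**
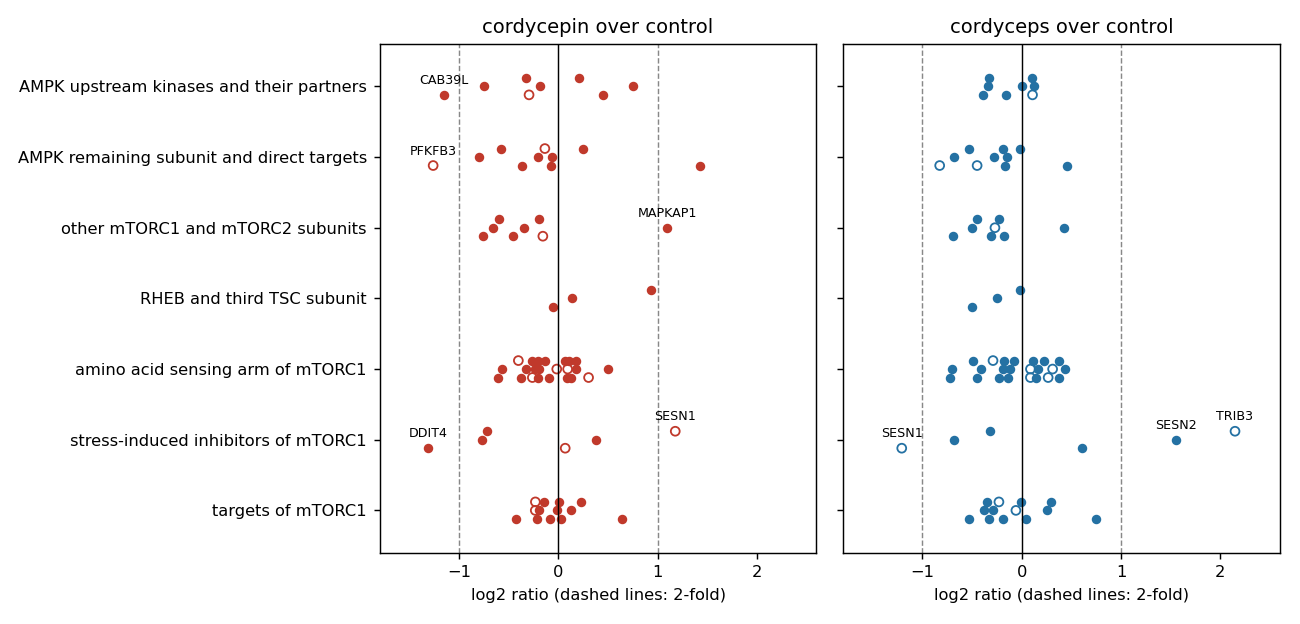
log2 ratio to control (horizontal axis) of the 71 measured genes of 7 pathway lists (vertical axis), for cordycepin (left) and cordyceps (right), 1 point per gene by its main probe, with open circles for probes in the corner of the array and dashed lines at 2-fold. Genes beyond 2-fold that the text describes are named, among them DDIT4 and SESN1 on the left and SESN1, SESN2 and TRIB3 on the right in the list of stress-induced inhibitors.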

How the data were processed

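Total RNA of A549 cells, 1 sample per condition, was hybridized on a single slide. The methods name Cy3 for control and Cy5 for cordycepin-treated cells, whereas the labels give Cy3 for every sample and each file holds 1 channel, and was read as a 1-color array. The authors deposited scanner output of Agilent Feature Extraction 11.5.1.1, in which each intensity had its background removed and a spatial trend corrected but no scaling between arrays, on an hg19 array design. The methods name GeneSpring for normalization. The value table of the series, also deposited as intensity, equals the processed signals within 1% for 99.971% of probes or more.

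From there, outlier spots were left out, log2 signals were averaged per probe (58191 probes with a value), and the 75th percentile of each array was subtracted. Detection required a share of 0.5 or more of the spots of a probe to be well above background. Where 1 array detected a probe, a bound against the floor of the other was used. Accessions were named through the RefSeq table of GRCh38.p14, and TTI1 and EIF4EBP3 were not analysed here. The corner comprised rows beyond 5/8 of the array and columns past its midline. Neighboring probes were those within 15 rows and 8 columns. Named genes were all members, every list gene called at 2-fold, and in each list the gene with the largest measured ratio in each comparison, except 1 gene that counts toward its list and is not reported here. The members and lists were chosen with earlier results of these data known. The number of arrays limits the precision. Alternatives were median, quantile and no scaling, the percentile over detected probes, normexp on the median spot signal with an offset of 50, and outliers kept. Further ones were the value table, the median over probes, detection filters, thresholds and leaving out the corner. Local centring was added after the data were seen. Calls were tested on simulated data, which cannot measure the spread between cultures. Python 3.11.15, numpy 2.4.6, pandas 2.3.3, R 4.3.3 and limma 3.58.1 were used.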

Additional observations from a re-analysis of the deposited data

How the results depend on the processing

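Counts of changed genes moved with thresholds and scaling. Against 1 member with cordycepin, median scaling gave 2, 3 passed at 1.5-fold, and 0 passed at 3-fold or with normexp background correction, which ended the PRKAG1 call and, among the pathway genes, those of CAB39L and SESN1. Over all genes, normexp left 388 at least 2-fold higher and 269 lower with cordycepin, against 947 and 569 as reported. Against 0 members with cordyceps, median scaling and the 1.5-fold threshold gave 1 each. Against 6 pathway genes with cordycepin, 17 of 72 passed at 1.5-fold, 6 higher and 11 lower, where 13.3% of all genes were higher and 11.8% lower. At 3-fold 0 passed, and 3 passed with the median over the probes of a gene, which ended the CAB39L, PFKFB3 and MAPKAP1 calls. Against 3 with cordyceps, 11 passed at 1.5-fold, 4 higher and 7 lower, where 8.30% of all genes were higher and 12.5% lower. At 3-fold 1 passed, and leaving out the corner gave 1, since the TRIB3 and SESN1 probes lie there. Median scaling moved the median log2 ratio of the members from -0.20 to -0.47 with cordycepin and from -0.06 to 0.21 with cordyceps, and that of the pathway genes from -0.16 to -0.41 and from -0.18 to 0.088. It shifts every ratio of a pair of arrays alike, which shows the cause, and for normexp the cause was not tested. No gene called at 2-fold reversed its direction under any alternative run. No paired analysis was possible because each condition has 1 array. With 1 array there is no replicate to leave out, and differences between cultures cannot be told apart from the treatments.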

Other observations

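PRKAG3, the remaining gamma subunit gene of AMPK, known chiefly from skeletal muscle, was detected on all 3 arrays of these lung adenocarcinoma cells. Its single probe had a signal of 1884 in control cells, 1408 under cordycepin and 1678 under cordyceps, with log2 ratios of -0.21 and -0.17. Whether that probe also binds other transcripts was not tested. PPARGC1A, a coactivator of mitochondrial biogenesis downstream of AMPK, had a signal of 1662, 822 and 2287 on the control, cordycepin and cordyceps arrays, with log2 ratios of -0.80 with cordycepin and 0.46 with cordyceps, short of 2-fold. Both genes fall outside the rule for named genes and were chosen after their values were seen.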
